A study of Sus scrofa domesticus with 2 samples.

Results

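Early S phase lung endothelial cells are cultured endothelial cells (ECs) of the pig lung whose transcripts were rich in genes that prepare and start DNA replication. They were chosen by measured values, the share E of a cell's transcripts that came from MCM4, MCM6, MCM7, MSH6 and PCNA and the share H that came from the linker histone genes HIST1H1D and HIST1H1E. Of the 5946 lung cells deposited, 5169 were kept as ECs, and the 620 cells in the top 12% by E were taken. Of these, 190 were also in the top 12% by H and were left out, so 430 cells, 8.32% of the kept cells, were members. They were compared with the other 4739 kept lung cells.

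The study built a transcriptome atlas of pig tissues and, beside it, measured ECs in culture. Primary ECs from the perfused lung and from the aorta close to it were released with collagenase and grown in serum-containing medium, with 1 library for each tissue. The assay counted unique molecular identifiers (UMIs) near the 3′ ends of polyadenylated transcripts, so a level is a number of molecules and was not scaled by gene length. The lung library held 57213236 UMIs, with a median of 9326 UMIs in a cell. From the aorta, 1185 cells were deposited with 46080859 UMIs, and the median cell had 45594. Without their library suffix, 5 cell barcodes occurred in both libraries.

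A cell enters S phase after the retinoblastoma protein releases the E2F transcription factors, which turn on genes for cyclin E, the loading of the MCM helicase on DNA and the supply of replication proteins. The helicase is loaded in G1 and fires at the origins in S phase, where PCNA clamps the polymerases to DNA and MSH6 helps to repair mismatches. Histone transcripts accumulate as replication proceeds, and genes for chromosome condensation and division follow in G2 and mitosis.

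Cells were kept with 201 to 4999 detected genes, under 30% of UMIs from 13 mitochondrial genes, at least 3 UMIs of PECAM1 and at most 2 UMIs of COL1A1 and COL1A2 together. The lowest E inside the top 12% was 0.0840% of UMIs and the highest outside it 0.0838%, and for H the values were 0.02628% and 0.02626%. E has no gap at this place: 96 members lay within 10% above the threshold, and 152 kept cells outside lay within 10% below it. Members are therefore defined by a cut on a score, and whether they form a separate type was not tested. Their median E was 0.104%, with a highest value of 0.185%, against a median of 0.0228% in the other kept cells. The median member had 11 UMIs of the 5 genes together, with a range of 1 to 26, while the median of the other cells was 2. All 5 genes were seen in 231 members, 4 in 155, 3 in 34, 2 in 8 and 1 in 2. Of the members, 206 had no UMI of the histone genes and 52.1% had at least 1, against 38.6% of all kept cells.

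**Figure D1:**
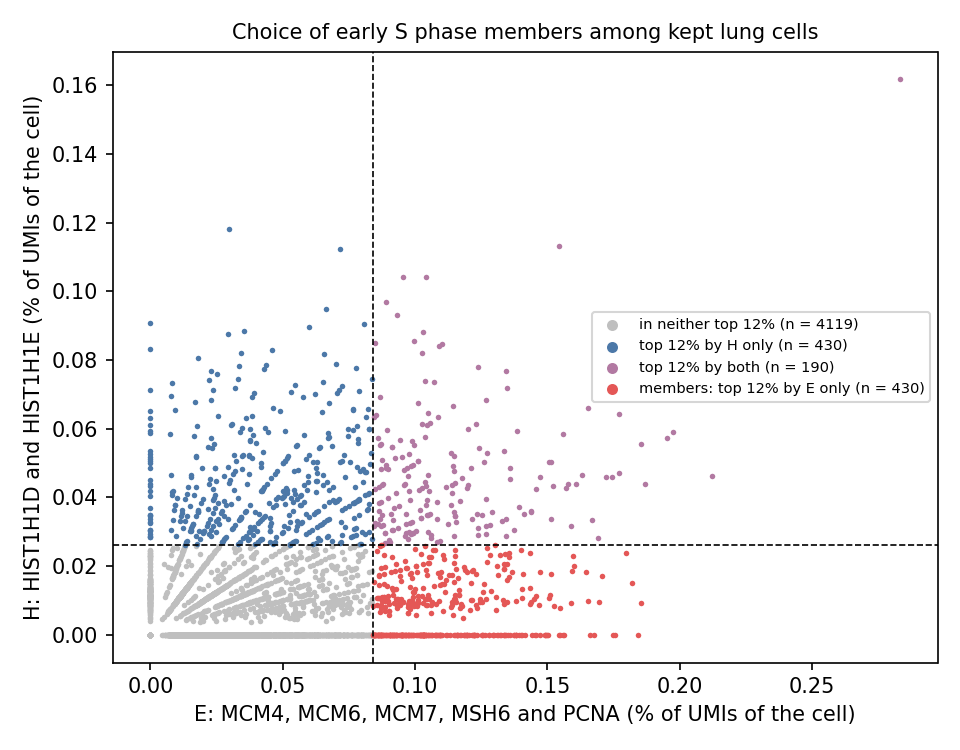
Each point is 1 of the 5169 kept lung cells, with E on the horizontal and H on the vertical axis, both in percent of the cell's UMIs. Dashed lines mark the lowest values inside the top 12%, and the 430 members lie to the right of 0.0840% and below the line for H.

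Levels are UMIs summed over the cells of a group, per 1000000 UMIs of the group (CPM), with exact Poisson 95% intervals, and ratios of 2 levels carry exact conditional 95% intervals. Both cover counting error only. As there was 1 library, no test was made, and a gene is counted as higher or lower where its ratio passed 1.5-fold at 20 CPM or more in at least 1 group. A gene that reaches this level in 1 group alone is by that higher in that group. Members had a median of 10399 UMIs and 3155.5 genes, and the other kept cells 9343 UMIs and 2874 genes. After each cell was thinned to 6300 UMIs, which left out 34 members and 482 other cells, the medians were 2330 and 2278 genes. The median mitochondrial share was 4.92% in members and 5.44% in the others. Chosen again on the thinned counts, members numbered 366, of which 256 were among the 430. The part of free RNA in the choice of single cells was not tested.

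The 5 genes that chose the members are given as a description. PCNA, the sliding clamp (chromosome 17, 14137746 to 14142584 of Sscrofa11.1), stood at 304 CPM in members against 87.4 CPM. MSH6, which recognises mismatches (chromosome 3, 92792590 to 92814154), stood at 192 against 44.8 CPM, and the helicase subunits MCM7, MCM4 and MCM6 at 254, 184 and 167 CPM against 76.9, 48.0 and 61.2 CPM. Each gene can also be read in cells chosen by the other 4, where it had no part in the choice. PCNA was then 2.32-fold higher (95% interval 2.16 to 2.48), MSH6 2.84-fold (2.59 to 3.10), MCM4 2.83-fold (2.59 to 3.09), and MCM7 2.38-fold (2.21 to 2.56). MCM6 then stood at 130 CPM (120 to 141) against 64.8 CPM. The 5 genes thus stood high together in the same cells, by less than when each gene took part in its own selection.

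The name was compared with G1/S markers outside the rule. CDC6, which loads the helicase, stood at 23.4 CPM (19.2 to 28.4) in members and 5.02 CPM in the other kept cells, a ratio of 4.67 (3.67 to 5.90). Cyclin E2 (CCNE2), which drives entry into S phase, stood at 36.6 CPM (31.2 to 42.7) against 9.92 CPM, a ratio of 3.69 (3.07 to 4.42). Uracil glycosylase (UNG) had a ratio of 3.92 (3.17 to 4.82) and cyclin E1 (CCNE1) of 2.36 (1.91 to 2.89). TYMS, which makes thymidylate, was nearly level at 175 against 168 CPM. CDC6, CCNE2 and UNG reached 20 CPM in members only, and a gene that reaches it this way has a ratio above 1. TYMS, and MCM3 and MCM5 given below, reached it in both groups. DNA content was not analysed here, so the phase is read from transcripts alone.

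Members carried the defining transcripts of ECs at about the level of the other kept cells. PECAM1, which gated the cells, stood at 1517 against 1608 CPM, CDH5, the cadherin of endothelial junctions, at 139 against 158 CPM, and the endothelial transcription factor ERG at 117 against 128 CPM. The receptors TIE1 and TEK stood at 81.0 and 20.1 CPM. Other endothelial markers were low or missing in members: KDR stood at 2.68 CPM, VWF at 0.446 CPM and PLVAP at 0.893 CPM, and MMRN1 had 0 UMIs in all kept cells. Mural markers summed to 993 CPM in members and 986 CPM in the others, nearly all of it TAGLN at 972 and 957 CPM, while ACTA2 stood at 2.23 CPM and CSPG4, RGS5 and MYOCD at 0 in members. Fibroblast markers summed to 447 and 522 CPM, led by POSTN at 311 CPM in members, with COL3A1 at 1.56 CPM and DCN, LUM and DPT at 0. Leukocyte markers summed to 40.6 and 53.6 CPM, led by CTSS, with PTPRC, CSF1R, CD163 and CD3E at 0. Epithelial markers summed to 32.6 and 24.8 CPM, almost all KRT7, with CDH1, KRT8 and KRT18 at 0 in members. For a count of 0 among the 4480399 UMIs of the members, the exact interval reaches 0.823 CPM.

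Across all genes, 149 of 5727 stood at least 1.5-fold higher in members (2.6%) and 49 at least 1.5-fold lower (0.856%), leaving out the 10 genes that chose or gated the cells. The median ratio over these genes was 1.02. The contrast is the one the rule used, so these counts describe the members. On 7 lists of replication and G1/S genes, 141 genes were measured and 106 reached 20 CPM, of which 61 stood at least 1.5-fold higher and 1 lower, with a median ratio of 1.66. How the lists differ among themselves is the subject of the next paragraphs.

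Helicase loading and origin recognition precede the other roles in the cell cycle. Of 16 measured genes 14 reached the level, 10 stood at least 1.5-fold higher and none lower, with a median of 2.08. The sum of the list was 805 CPM in members and 435 CPM in the others. MCM5 had the highest level of the list in members, 92.8 CPM (84.1 to 102) against 45.1 CPM. MCM3 stood at 71.0 against 22.7 CPM, a ratio of 3.12 (2.75 to 3.55), and MCM2 had a ratio of 2.12. The loader CDT1 stood at 63.4 against 23.8 CPM, 2.66-fold higher (2.33 to 3.03), and its inhibitor geminin (GMNN) at 72.8 against 34.5 CPM, 2.11-fold higher. MCM10, which helps the loaded helicase to start, had a ratio of 3.29 (2.89 to 3.73). The origin recognition complex was uneven: ORC1 stood 2.61-fold and ORC6 1.99-fold higher, while ORC3 and ORC4 had ratios of 1.11 and 0.927.

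Genes of the moving fork had a median of 2.21. Of 13 measured, 8 reached the level and 6 passed 1.5-fold, all of them higher. Claspin (CLSPN), which passes the checkpoint signal from a stalled fork, stood at 121 against 46.1 CPM, a ratio of 2.62 (2.38 to 2.88). The GINS subunits GINS2 and GINS1, which complete the active helicase, stood 2.28-fold and 2.20-fold higher, and CDC45, their partner, 1.67-fold. Among polymerases and clamp loaders, 13 of the 21 genes at the level stood higher and 1 lower, with a median of 1.57. The primase PRIM1 stood at 60.0 against 24.3 CPM (ratio 2.47), the ligase LIG1 at 32.4 against 14.1 CPM (2.29) and the polymerase subunit POLD3 at 44.0 against 19.9 CPM (2.21). PCLAF, a partner of PCNA, had the highest level of this list, 224 against 151 CPM. POLD4, the smallest subunit of polymerase delta, went the other way, at 61.8 CPM (54.8 to 69.6) against 103 CPM, a ratio of 0.601 (0.530 to 0.678).

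Nucleotide synthesis supplies the building blocks of the new DNA. All 14 genes at the level had a ratio above 1, but 2 passed 1.5-fold, thymidine kinase TK1 at 119 against 76.7 CPM (1.55) and PPAT, the first enzyme of purine synthesis, at 28.8 against 17.2 CPM (1.68). With PCNA left out of E, TK1 lay just below the fold. Against cells in neither the top by H nor that by mitotic genes, TK1 had a ratio of 2.38. The list median was 1.28. DUT, which removes dUTP, was the most abundant at 506 against 479 CPM, and the ribonucleotide reductase subunit RRM1 had a ratio of 1.07 (0.876 to 1.29).

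Repair genes that act at forks gave the highest median of the 7 lists, 2.28, and 15 of the 16 genes at the level stood at least 1.5-fold higher. The chromatin remodeller HELLS (chromosome 14, 105923727 to 105967003) stood at 69.2 CPM (61.7 to 77.3) against 20.3 CPM, a ratio of 3.41 (2.99 to 3.88). BARD1, a ubiquitin ligase subunit in homologous recombination, had a ratio of 3.15 (2.76 to 3.58) and the helicase BLM of 2.72. The deubiquitinase USP1 and the chromatin regulator ATAD2 were most abundant, at 193 and 176 CPM against 117 and 77.2 CPM. FANCD2 was the gene at the level that did not pass the fold, with 1.12.

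Among regulators of the G1/S step, 9 of 15 genes at the level stood at least 1.5-fold higher. CCNE1, CCNE2 and the E2F partners TFDP1 and RBL1 were among them, and no D-type cyclin was, though CCND3 came close at 1.45 and passed the fold in some alternatives, with 1.85 on thinned counts, where TFDP1 did not pass it, with 1.37. E2F8, a repressor of the family, had a ratio of 2.59 (2.15 to 3.12), FBXO5, which restrains the anaphase promoting complex, of 2.15 and CDK2, the kinase of cyclin E, of 1.85. With comparison cells in neither top, the ratios of E2F8 and FBXO5 were 6.14 and 4.87. SLBP, which binds the stem-loop of histone transcripts, stood at 157 against 89.3 CPM, 1.76-fold higher (1.62 to 1.90). The other D-type cyclins CCND1 and CCND2 had ratios of 0.940 and 0.968 and their kinases CDK4 and CDK6 of 1.21 and 1.05. In the list on chromatin assembly and the upkeep of DNA methylation, 6 of 18 genes passed 1.5-fold. CHAF1B and CHAF1A, subunits of the factor that places histones behind the fork, stood 3.91-fold (3.13 to 4.85) and 3.21-fold higher. UHRF1 and DNMT1, which copy methylation to the new strand, stood at 86.2 and 253 CPM, 3.06-fold and 1.88-fold higher, and the histone chaperone NASP at 263 CPM, 1.86-fold higher. The most abundant chromatin genes, H2AFZ and HMGB1, were near level at 1.15 and 1.05.

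For G2 and mitosis, 49 of 59 measured genes reached the level, 1 stood at least 1.5-fold higher and 7 lower, with a median of 0.817. The lamin gene LMNB1 was the higher one, at 72.8 against 47.2 CPM, a ratio of 1.54, and did not pass the fold in 3 alternatives, with 1.47 as the lowest. CCNB1, the cyclin of mitosis, stood at 41.5 CPM (35.8 to 47.9) against 79.5 CPM, a ratio of 0.522 (0.448 to 0.605), and CENPF, a kinetochore protein, at 103 against 188 CPM, a ratio of 0.549 (0.499 to 0.603). Against cells in neither the top by H nor that by mitotic genes CCNB1 had a ratio of 0.801. CCNB1 is itself among those mitotic genes, so this ratio is partly set by the choice. These ratios changed with the comparison cells. The other kept cells mix cells rich in mitotic genes with many that have few, but the cause of the change was not tested. The choice of members mattered too. Without the exclusion by H, 7 genes of the list stood at least 1.5-fold higher in place of 1, and the summed list was slightly higher in members, as given below. The median share of a cell's UMIs from the list was 0.372% in members and 0.322% in the other kept cells, while the 90th percentiles were 0.710% and 1.01%. Thus the typical member lay above the typical other cell, and the other cells held the highest values.

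To place the members, the other kept cells were split into 190 cells in the top 12% of both E and H, 430 of H without E, 420 of neither but in the top 12% by the share of TOP2A, CENPF, CCNB1, CDC20 and HMMR, and 3699 remaining cells. Of the members, 19 were also in that last top 12%. TOP2A, which untangles chromosomes, helped to choose the mitosis-high and the remaining cells, so its order there is set in part by the choice. It stood at 180 CPM in members, 370 in cells high in both, 558 in the histone-high cells, 889 in the mitosis-high cells and 49.3 in the remaining cells. CCNE2 was highest in members, with 36.6, 30.5, 13.8, 6.16 and 8.62 CPM in the same order, and so was CDC6, with 23.4, 17.7, 7.53, 2.12 and 4.30 CPM. The core histone gene H2AC20 peaked in the cells high in both, at 174 CPM, and stood at 70.1 CPM in members and 20.3 CPM in the remaining cells. As linker histone genes helped to split the groups, the order of H2AC20 can be set in part by the choice too. Members thus had the highest CCNE2 and CDC6 of the 5 groups. The intervals of members and of cells high in both overlapped for CCNE2 (23.6 to 38.7 in the latter) and CDC6 (12.6 to 24.2). The replication and G1/S lists summed together were higher in cells high in both, at 15030 CPM against 13620 CPM in members. The licensing list stood at 899 against 805 CPM and the repair list at 1303 against 1151 CPM. The G1/S regulators were close, at 1366 against 1342 CPM.

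**Figure D2:**
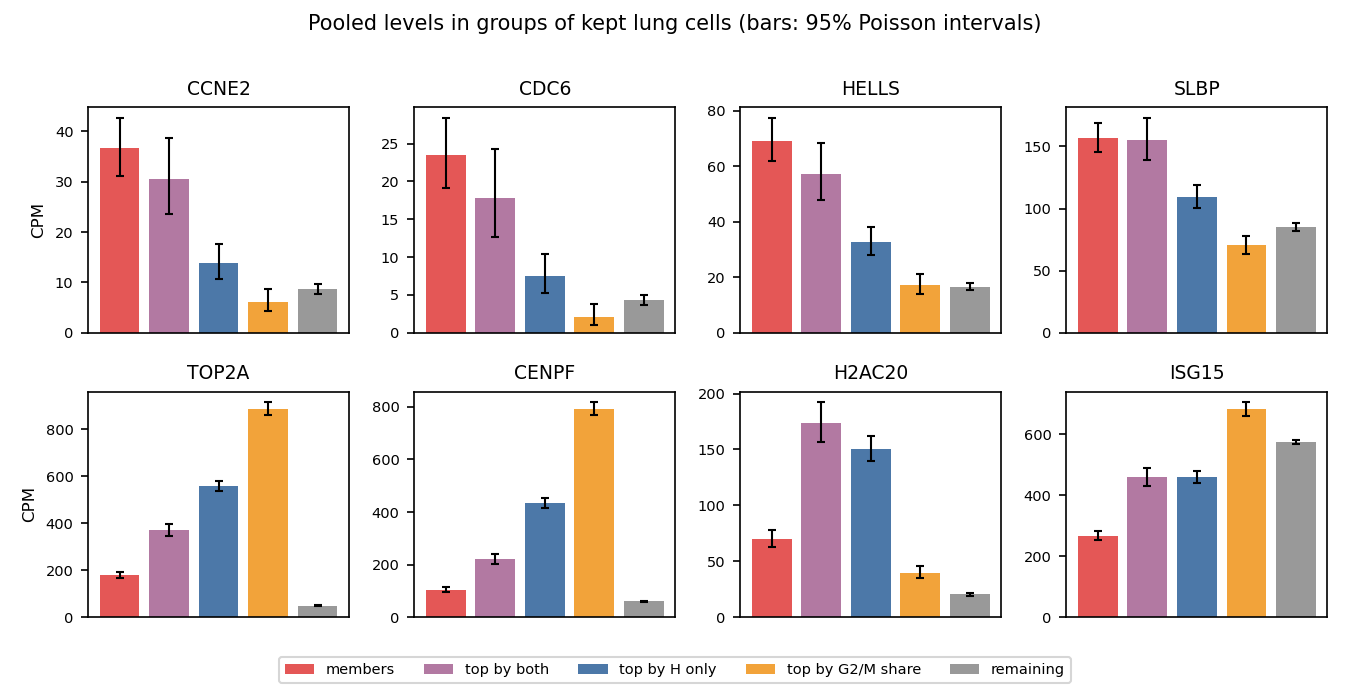
Bars give the pooled level of 8 genes in CPM in 5 groups of kept lung cells that do not overlap, with 95% Poisson intervals as lines. CCNE2 and CDC6 are highest in members, at 36.6 and 23.4 CPM, while TOP2A and CENPF, at 889 and 792 CPM in the mitosis-high cells, are 2 of the genes by which those cells were chosen. The summed replication and G1/S lists, not drawn, are higher in the cells high in both, at 15030 CPM against 13620 CPM in members.

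Against the histone-high cells, 65 of 5776 genes stood at least 1.5-fold higher in members (1.13%) and 150 lower (2.6%). Members were taken from the top by E and kept out of the top by H, and the histone-high cells the reverse. Ratios of genes that vary with E or H are thus partly set by that choice, and the counts here describe it. On the list of G2 and mitosis genes, 46 of the 53 genes at the level stood lower and none higher, with a median of 0.480. Of the 109 replication and G1/S genes at the level 17 stood higher and 2 lower, with a median of 1.11. Of the replication genes named above UNG differed most, at 28.1 against 7.93 CPM, 3.54-fold higher (2.46 to 5.22), followed by CDC6 at 3.11-fold and CCNE2 at 2.65-fold. BARD1, HELLS and MCM3 stood 2.16-fold, 2.11-fold and 1.97-fold higher, and no polymerase or clamp loader gene passed the fold in either direction. On the licensing list 5 of 14 genes at the level stood higher and 1 lower.

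Against the 3699 remaining cells, 280 of 5729 genes stood at least 1.5-fold higher in members (4.89%) and 57 lower (0.995%). MCM10 stood 4.91-fold (4.25 to 5.67), HELLS 4.16-fold and UHRF1 3.96-fold higher. In this comparison 18 of 48 G2 and mitosis genes stood higher and 1 lower. Cells high in TOP2A, CENPF, CCNB1, CDC20 and HMMR had been removed from the comparison cells, so the ratios of TOP2A (3.65) and CENPF (1.71) are partly set by that choice. Other mitotic genes that vary with these 5 can be moved by the same choice, so CDK1 at 3.50-fold higher and UBE2C at 1.61-fold higher, against a ratio of 0.586 in the main comparison, are a description of it as well.

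Arrest and p53 target genes had more ratios below 1 than above it. Of 12 at the level, 2 stood at least 1.5-fold lower and none higher, with a median of 0.835. ZMAT3, a p53 target, stood at 45.5 CPM (39.5 to 52.2) against 89.6 CPM, a ratio of 0.508 (0.439 to 0.585), and MDM2, which degrades p53, at 37.1 against 58.8 CPM, a ratio of 0.630. Without the exclusion by H the ratio of MDM2 was 0.887, which does not pass the fold. The inhibitor CDKN1A was nearly unseen, with 1 UMI in members and 66 in the other cells. Growth genes linked to MYC had a median of 1.18 and 1 of 18 past the fold, NOP56 of the nucleolus at 170 against 113 CPM. The ratio of NOP56 was 1.51, and 1.42 with the top 6% by E, below the fold. Nucleolin (NCL) stood at 724 against 520 CPM, 1.39-fold higher (1.34 to 1.44), and MYC itself at 11.2 against 9.86 CPM.

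Endothelial identity genes did not pass the fold in either direction, 0 of 18 at the level, with a median of 0.904 and a sum of 2498 against 2730 CPM. CLEC14A had the lowest ratio among them, 0.767 (0.681 to 0.861), and ECSCR the highest level, 607 against 625 CPM. Genes of angiogenesis and tip cells had 0 of 8 past the fold and a median of 0.882, those of YAP and matrix response 0 of 17 and 0.937, and those of cholesterol synthesis 0 of 14 and 1.05. Glycolysis genes had a median of 0.992, and PFKFB3, a regulator of glycolysis in ECs, was the 1 of 13 past the fold, at 67.6 against 103 CPM. Its ratio was 0.658, and 0.704 with MSH6 left out of E, which does not pass the fold. Immediate early and heat shock genes had 0 of 12 past the fold and a median of 0.975, and mitochondrial genes 0 of 13 and 0.937.

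Interferon response genes were lower as a group. Of 21 measured, 17 reached the level, 9 stood at least 1.5-fold lower and none higher, with a median of 0.643 and a sum of 1180 against 1931 CPM. ISG15, a ubiquitin-like protein that interferon induces, stood at 267 CPM (252 to 283) in members and 569 CPM in the others, a ratio of 0.470 (0.443 to 0.498). IFI6 stood at 163 against 307 CPM, IFIT1 at 33.9 against 71.0 CPM and the chemokine CXCL10 at 2.46 against 24.5 CPM. The ratio of CXCL10, 0.100, depended on the choice of members and was 0.550 without the exclusion by H. The difference was larger among the cells with most ISG15: the median member had 0.968 ISG15 UMIs per 10000 and the median other cell 1.34, while the 90th percentiles were 6.37 and 12.4. Of the members, 26 (6.05%, Clopper-Pearson 95% interval 3.99% to 8.73%) were in the top 12% of kept cells by the summed list, against 594 of the others (12.5%, 11.6% to 13.5%). The shares in cells high in both, 7.37% (4.09% to 12.1%), and in the histone-high cells, 7.44% (5.15% to 10.3%), were close to that of the members. These intervals count cells of 1 library, which are not replicates. The list stood at 1588 CPM in cells high in both, 1578 CPM in the histone-high cells, 1917 CPM in the mitosis-high cells and 2004 CPM in the remaining cells, so members had the lowest level of the 5 groups.

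Adhesion and inflammation genes were mostly level, with 2 of 12 past the fold and a median of 0.951. VCAM1, an adhesion molecule for leukocytes, was most abundant at 2970 against 3257 CPM, and CCL2 stood at 1427 against 1455 CPM. The chemokine CCL5 stood at 31.0 CPM (26.1 to 36.6) against 88.4 CPM, a ratio of 0.351 (0.294 to 0.415), and the protease inhibitor SLPI at 50.7 against 110 CPM, a ratio of 0.461. The ratio of CCL5 moved with the choice of members, from 0.178 with MSH6 left out of E to 0.657 with the top 6% by E.

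Outside the lists, of the 15 named genes with the largest ratios at 50 CPM or more, ZNF367 came first. It stood at 58.5 against 20.3 CPM, 2.89-fold higher (2.51 to 3.31). RAD18, a ligase that modifies PCNA at damaged DNA, had a ratio of 2.28, the histone chaperone partner HIRIP3 of 1.98 and the histone methyltransferase EZH2 of 1.93. SASS6 of the centriole, the splicing factor SRSF7, RELL1, UTP20, H2AC20, LYAR, NAF1, NUP153, MCRIP2 and KIF1BP had ratios from 1.54 to 1.76. RELL1, UTP20, H2AC20, NUP153, MCRIP2 and KIF1BP did not pass the fold in at least 1 alternative, and H2AC20 ranged from 1.26 with PCNA left out of E to 3.46 against cells in neither top. ALDH1A3, which makes retinoic acid, was the most abundant of the 15, at 294 CPM (278 to 310) against 171 CPM. In the other direction ASPM of the spindle had the lowest ratio, 0.444 (0.373 to 0.526), followed by the small heat shock protein CRYAB at 0.514, ISG12(A), an interferon response gene, at 0.551 and the growth factor FGF2 at 0.640, 97.3 against 152 CPM. UBALD2, FUCA1, BACH1, FOSL2, LGALS3BP, TAP1, DHRS3, LMBR1, XPC, PNRC1 and MGMT had ratios from 0.658 to 0.747. Of these, only UBALD2 passed 1.5-fold in the main comparison. ASPM, FGF2 and UBALD2 did not pass the fold in at least 1 alternative, with 0.771 and 0.804 for ASPM and UBALD2 against cells in neither top and 0.709 for FGF2 with the top 6% by E.

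Members varied among themselves in genes that the rule did not use. The share of a cell's UMIs from the 7 replication and G1/S lists had a 10th percentile of 1.07%, a median of 1.35% and a 90th percentile of 1.62%, against 0.558%, 1.06% and 1.43% in the other kept cells. Of the members, 90.7% lay above the median of the other cells and 36.7% above their 90th percentile. For the repair list alone, 95.3% of members lay above that median, with a median share of 0.114% against 0.0386%. The distributions of members and other cells overlap.

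With kept cells binned by E, from 978 cells without a UMI of the 5 genes to the highest of 6 bins of 698 or 699 cells, the licensing list stood at 234, 282, 371, 418, 517, 632 and 823 CPM. The interferon list ran from 2606 CPM in cells without a UMI to 1303 CPM in the highest bin. The G2 and mitosis list was highest in the middle, with 2362 CPM in cells without a UMI, 6037 CPM in bin 3 and 4950 CPM in bin 6. Median depth ran from 8156 to 10635 UMIs over the same bins, and its part in these levels was not tested. With every cell thinned to 6300 UMIs, members and other cells stood at 798 and 422 CPM for the licensing list and at 1182 and 1922 CPM for the interferon list.

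**Figure D3:**
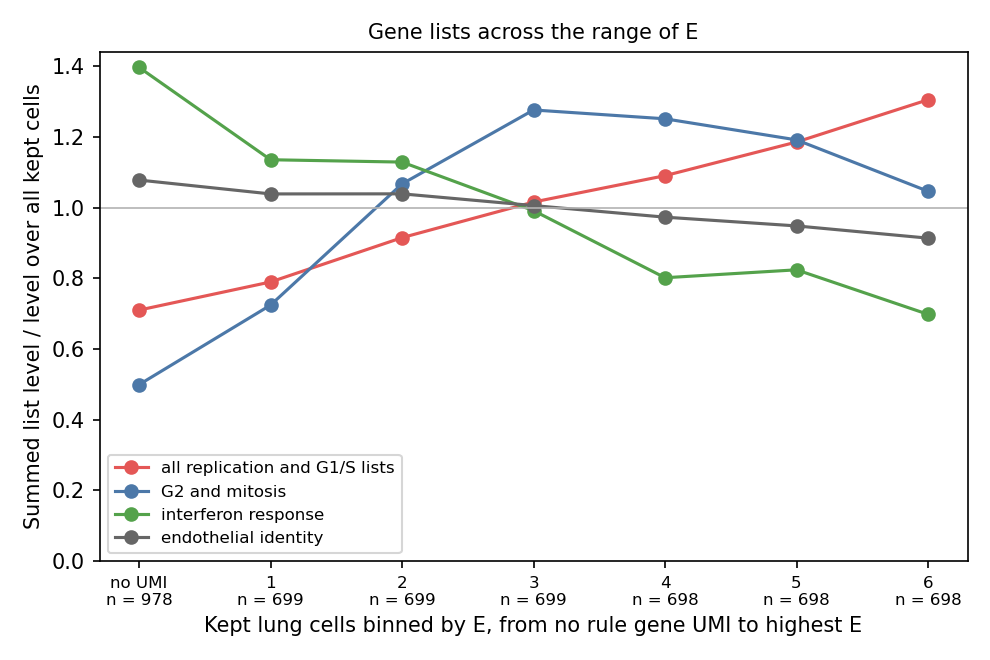
Points give the summed level of a gene list relative to its level over all kept lung cells, in 7 bins of E from cells without a UMI of the 5 genes (978 cells) to the highest E (698 cells). The replication lists climb with E, and the G2 and mitosis list is highest in bin 3. The interferon list goes from 2606 to 1303 CPM, with 1496 CPM in bin 4 and 1537 CPM in bin 5.

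The aorta cells got thresholds of their own. Most of its cells held 5000 genes or more, so the rule was applied with no upper limit on genes: 399 cells were kept, 48 were in the top 12% by E, and 22 of these were not in the top 12% by H. These 22 cells had a median of 58943 UMIs. Of 6075 genes, 449 stood at least 1.5-fold higher in them than in the other 377 kept aorta cells (7.39%) and 290 lower (4.77%), from 1150175 UMIs. In place of 449 the count was 1139 on thinned counts, with 35 chosen cells, and 2055 among cells under 5000 genes, with 6. The chosen cells changed in both, so depth was not varied alone. Of 109 replication and G1/S genes at the level, 74 stood higher and none lower, with a median of 1.86 against 1.04 over all genes. CCNE2 stood at 69.6 against 20.8 CPM, 3.34-fold higher (2.59 to 4.26), CDC6 3.36-fold (2.36 to 4.70), MCM10 3.28-fold and HELLS 2.65-fold. Repair genes had 18 of 18 past the fold and a median of 2.35. Of 20 interferon genes 11 stood lower and none higher, and ISG15 stood at 275 against 864 CPM, a ratio of 0.318 (0.284 to 0.356). CCL5 stood at 4.35 against 107 CPM and CXCL10 had 0 UMIs in the 22 cells against 95.7 CPM. With this rule CCNE2, CDC6, MCM10, HELLS, ISG15 and CCL5 lay on the same side of 1 in both libraries. Growth genes had a median of 1.31 there, and arrest and p53 genes of 0.662, with 7 of 14 past the fold.

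**Figure D4:**
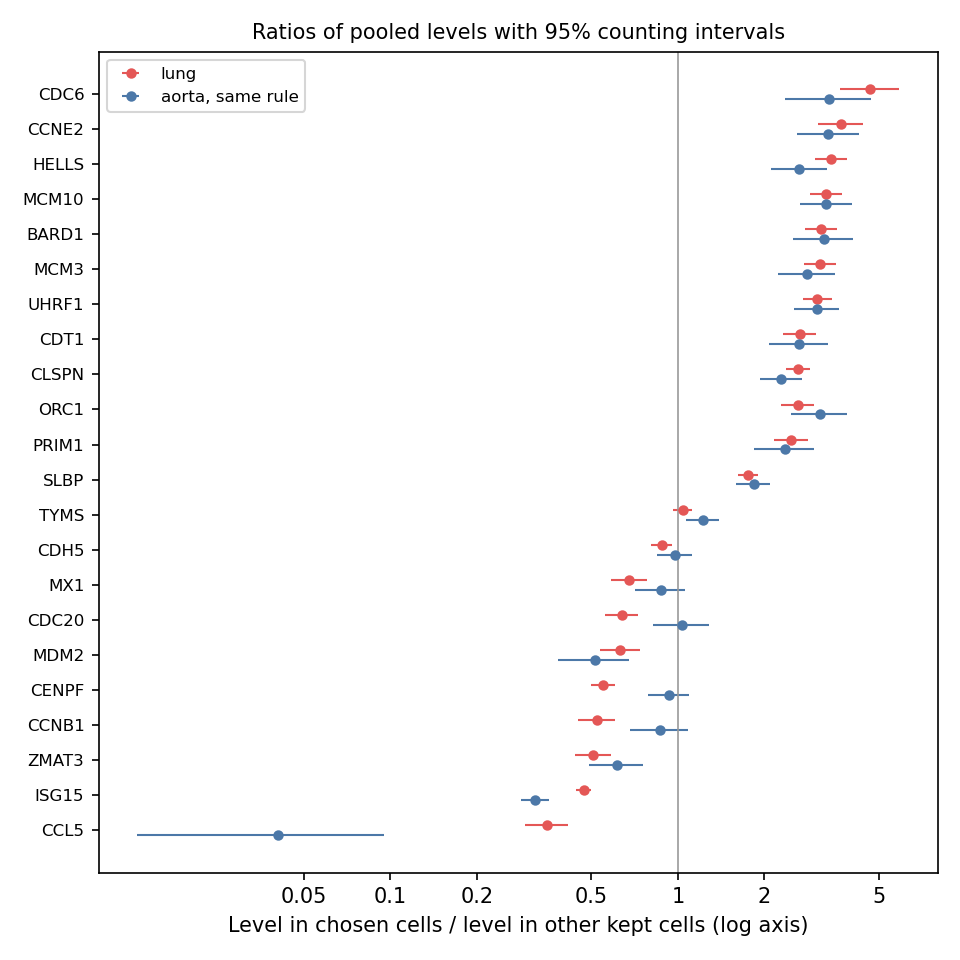
Points give the ratio of the pooled level in cells chosen by the rule to that in the other kept cells, on a log axis, for lung and aorta, with exact 95% counting intervals. Of the genes drawn, CDC6 and CCNE2 are highest in the lung at 4.67 and 3.69, and CCL5 is lowest in both libraries at 0.351 and 0.0405.

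As E2F is known to drive many G1/S genes, the 250 bases before the annotated start of each gene were read from the RefSeq annotation of Sscrofa11.1, for 19506 protein-coding genes. The words searched on both strands were TTTCCCGC, TTTGGCGC, TTTCGCGC and TTTGCCGC for E2F, TTTGAA and TTCGAA for the cell cycle homology region (CHR) of mitotic genes, and CCAAT. They were chosen with the levels known, and TTTGGCGC and TTTCGCGC can overlap on opposite strands. An E2F word was in 2.82% of all promoters and a CHR word in 13.9%, and among genes at 20 CPM or more in 4.08% and 11.9%. CCAAT was in 33.7% of the latter promoters and in 30 of 60 promoters of replication and G1/S list genes past the fold. Of 60 promoters of replication and G1/S list genes past the fold, 10 held an E2F word (16.7%), and of 43 of those not past the fold 3 did (6.98%). Of 142 promoters of all genes at least 1.5-fold higher 14 did (9.86%), and of 45 of the lower genes 1 did (2.22%). A CHR word was in 27 of 142 promoters of the higher genes (19.0%). It was more frequent than an E2F word there, as among genes at 20 CPM or more. Of the 60 promoters of replication and G1/S list genes past the fold, 6 held a CHR word (10%). On the G2 and mitosis list, 20 of 58 promoters held a CHR word (34.5%) and 9 an E2F word (15.5%). A match is a description of letters and not a site, and most of the genes, HELLS, MCM3, UHRF1 and CCNE2 among them, had no E2F word in this window.

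To show the words, 2 promoters of members' genes with an E2F word follow, and TOP2A with CHR words. They are picked examples and not a contrast between the sets, where E2F words were in 16.7% of replication and G1/S promoters past the fold and 15.5% on the G2 and mitosis list. They are MCM6 (chr15:15923388-15923637, plus strand), CDT1 (chr6:897707-897956, minus strand) and TOP2A (chr12:22001050-22001299, plus strand). Each is written 5′ to 3′ up to the base before the annotated start, with E2F and CHR words in capitals.
MCM6: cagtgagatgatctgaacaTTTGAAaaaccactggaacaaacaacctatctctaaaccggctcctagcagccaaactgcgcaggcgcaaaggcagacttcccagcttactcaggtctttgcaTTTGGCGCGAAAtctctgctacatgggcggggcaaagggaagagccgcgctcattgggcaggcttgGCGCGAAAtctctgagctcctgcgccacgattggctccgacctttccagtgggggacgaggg
CDT1: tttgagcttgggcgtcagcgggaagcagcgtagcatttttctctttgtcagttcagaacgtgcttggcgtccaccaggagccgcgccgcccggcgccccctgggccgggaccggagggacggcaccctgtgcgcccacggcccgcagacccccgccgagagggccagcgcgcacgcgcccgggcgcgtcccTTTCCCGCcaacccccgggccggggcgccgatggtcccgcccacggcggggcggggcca
TOP2A: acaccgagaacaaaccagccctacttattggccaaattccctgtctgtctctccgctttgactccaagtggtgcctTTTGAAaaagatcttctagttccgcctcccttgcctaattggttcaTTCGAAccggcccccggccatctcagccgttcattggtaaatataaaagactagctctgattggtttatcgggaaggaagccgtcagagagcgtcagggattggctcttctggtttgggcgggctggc
MCM6 held 3 E2F words, of which 2 overlap, and 1 CHR word, and CDT1 held 1 E2F word. TOP2A held 2 CHR words and no E2F word. MCM6 was part of the rule and the only 1 of its 5 genes with an E2F word. CDT1 stood 2.66-fold higher in members, and TOP2A had a ratio of 0.855 (0.795 to 0.919).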

How the data were processed

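The UMI counts that the authors deposited were not normalized, and came from Cell Ranger 3.0.2 with Sscrofa11.1. Here the counts of the lung EC library and, for comparison, the aorta EC library were read in Python 3.11.15 with numpy 2.4.6, pandas 2.3.3 and scipy 1.17.1. Cells were limited and members chosen by the rule, and counts were summed over cells. The members and gene lists were chosen with earlier results of these data known. Genes were named from 27 lists of 506 genes, 29 of which were not analysed here, and outside the lists as the 15 with the largest ratio each way among genes with a symbol at 50 CPM or more. No doublet caller was run, and leaving out the 5% of cells with most UMIs was an alternative. Replication-dependent histone transcripts mostly lack a poly(A) tail, so their levels here may be incomplete, and near-identical histone genes may share UMIs. Alternatives covered the share of cells taken, the gates, each rule gene, depth, scaling, filter and comparison cells. Ratios were checked on simulated counts. Coordinates and sequences come from the RefSeq annotation by symbol, with pyfaidx 0.9.0.4.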

Additional observations from a re-analysis of the deposited data

Results flagged for a closer look

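Leaving out the genes of the rule, the summed level of 2 gene lists in the chosen cells stood on opposite sides of the other kept cells in the lung and in the aorta, with counting intervals that exclude 1 in both. For the G2 and mitosis list the ratio was 0.903 (0.890 to 0.916) in the lung and 1.16 (1.14 to 1.19) in the aorta. There 9 of 50 genes of the list stood at least 1.5-fold higher, beside 449 of 6075 over all genes (7.39%). For the YAP and matrix response list it was 0.940 (0.931 to 0.949) in the lung and 1.09 (1.08 to 1.11) in the aorta, where ANKRD1 stood at 3262 against 2050 CPM. The median ratio over the genes of this list lay below 1 in both libraries, 0.937 in the lung and 0.868 in the aorta, with 4 of 17 and 4 of 18 genes above 1. In the lung the ratio of the G2 and mitosis list turned with the choice of cells: it was 1.35 against cells in neither top, 1.04 without the exclusion by H and 1.00 with MSH6 left out of E. The difference between the libraries was not tested, and tissue and library cannot be told apart. The 22 aorta cells had a median of 58943 UMIs against 10399 in the lung members.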

How the results depend on the processing

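No paired analysis was possible because the labels give no replicate numbers, and there is 1 library for each tissue. Taking the top 6% by E left 212 members and the top 20% gave 742, by construction, and with the top 20% the genes at least 1.5-fold lower were 27 and not 49. With comparison cells in neither the top by H nor that by mitotic genes, 280 genes stood higher in place of 149 and 18 G2 and mitosis genes in place of 1, and CENPF and UBE2C turned to ratios of 1.71 and 1.61. That G2 and mitosis count was 7 without the exclusion by H, and 0 with members outside the top mitotic share, on thinned counts and without the deepest 5% of cells. A filter of 50 CPM tested 3101 genes and left 54 higher, 19 lower and 28 replication genes, and no minimum took in 15578 genes, with 1653 higher and 3393 lower. In the aorta, cells under 5000 genes left 6 chosen cells and gave 2055 higher genes, and thinning to 6300 UMIs gave 1139 with 35 chosen cells. Apart from the numbers of members, the cause of these differences was not tested. Of the 61 replication and G1/S genes, the count lay between 58 and 71 in the lung alternatives that kept the 20 CPM filter. Of 108 named genes past the fold, 79 stayed past it in each of 17 alternatives and 106 stayed on 1 side of 1. The choice of single cells also moved: after thinning, which left out 516 cells, 366 members were chosen and 256 of them were among the 430.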

Other observations

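The genes here were chosen after their values were seen. The core histone gene HIST1H2AC stood at 20.8 CPM (16.8 to 25.4) in members against 10.1 CPM in the other kept cells and at 51.8 CPM in cells high in both E and H. Its ratio of 2.05 to the other kept cells ranged from 1.44 on thinned counts, below the fold, to 4.07 against cells in neither top. Linker histone genes helped to choose these groups, so the levels of HIST1H2AC can be set in part by the choice. TNFRSF6B, a decoy receptor, stood at 122 CPM in members against 67.7 CPM in the histone-high cells, 1.80-fold higher (1.57 to 2.07), and TNFRSF6B was 1.41-fold higher (1.29 to 1.54) than in the other kept cells. A gene without a symbol in the tables used, ENSSSCG00000031741, stood at 331 against 130 CPM in the other kept cells, 2.55-fold higher (2.41 to 2.70), and 2.24-fold higher in the aorta.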
